A study of Mus musculus with 4 samples.

Results

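The 6 genes described here, Grm2, Grm3, Grm4, Grm5, Grm7 and Grm8, encode metabotropic glutamate receptors. They were taken by gene symbol from the 32285 genes of the count matrices, by a rule that uses no measured value, though earlier results of these data were known when the family was chosen. All 6 had UMIs in every lane. The data are single-nucleus RNA-seq of the cerebral cortex of C57BL/6J wild-type mice at postnatal day (PND) 90. The risperidone group received 4 mg/kg risperidone, an antipsychotic that blocks dopamine and serotonin receptors, by daily intraperitoneal injection for 21 days from PND 22. The saline group received saline on the same days. The study dissolved risperidone in DMSO and diluted it in saline, and its methods mention no DMSO for the saline group. Both groups were then left without drug until PND 90. The right hemicortices of 10 mice, 5 male and 5 female, were combined into 1 pool per condition, whose sorted nuclei were loaded on 2 Chromium lanes.

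The 4 lanes held 29536 and 29986 nuclei for saline and 25983 and 23450 for risperidone, with 119736937 to 203675013 UMIs and median UMIs per nucleus of 3297 and 4049 against 5648 and 7765.5. The lowest number of UMIs in a nucleus was 1364 and 1630 in the saline lanes but 500 in both risperidone lanes. Any 2 lanes shared 160 to 221 cell barcodes. The 2 lanes of a pool are technical runs, so there is 1 sample per condition, no test between the conditions was made, and the treatment and the pool cannot be told apart. Intervals are exact, at 95% confidence, and cover counting error only. Differences between the pools are given as log2 ratios of risperidone over saline. A gene is called listed where this ratio was at least 0.5 in size, the mean level was at least 10 CPM (UMIs of the gene per 1e6 UMIs of the class), and the lanes of the pools did not overlap. Classes were clusters named from marker genes, and each name means that a cluster was like that type. The nuclei of unnamed mixed clusters, 13.3% to 14.9% of a lane, entered no class.

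Metabotropic glutamate receptors are G protein-coupled receptors that adjust transmission at glutamate synapses slowly, in contrast to the ion channels opened by glutamate. Group I, which holds Grm5, couples to Gq and phospholipase C and sits mainly around the postsynaptic density. Group II (Grm2, Grm3) and group III (Grm4, Grm6, Grm7, Grm8) couple to Gi/o and lower cAMP. Group III receptors are known mainly as presynaptic brakes on release, group II receptors lie outside the synaptic contact, and Grm3 is also the main metabotropic receptor of mature astrocytes.

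The matrices count intronic reads, so the length of a gene sets much of its UMI count. On GRCm38, Grm7 spans 922 kb of chromosome 6 (110645581 to 111567230, plus strand) and Grm8 860 kb of the same chromosome (27275119 to 28135178, minus strand). Grm5 spans 551 kb of chromosome 7 (87584168 to 88134907, plus strand), and Grm3 240 kb of chromosome 5 (9485541 to 9725170, minus strand). In these 4 genes annotated exons cover 0.64% to 1.86% of the span. Grm4 spans 99.0 kb of chromosome 17 (27422387 to 27521403, minus strand), and Grm2, the shortest, spans 12988 bases of chromosome 9 (106643095 to 106656082, minus strand), of which 37.7% is exonic. The annotation places 1 antisense gene over Grm2 (Gm28111) and 1 over Grm7 (Gm20387), with 9 and 49 UMIs and with 418 and 619 UMIs in glutamatergic neurons of the saline and risperidone pools, and no other gene of the matrices over the members.

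In glutamatergic neurons, the order of the levels per 100 kb of gene span (mean of the pools' CPM) was Grm5 at 369, Grm7 at 333, Grm3 at 216, Grm8 at 75.7, Grm2 at 38.6 and Grm4 at 37.1. Grm5 and Grm7 were thus the most abundant for their length, and Grm2 rested on 722 and 944 UMIs in the saline and risperidone pools.

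**Figure D1:**
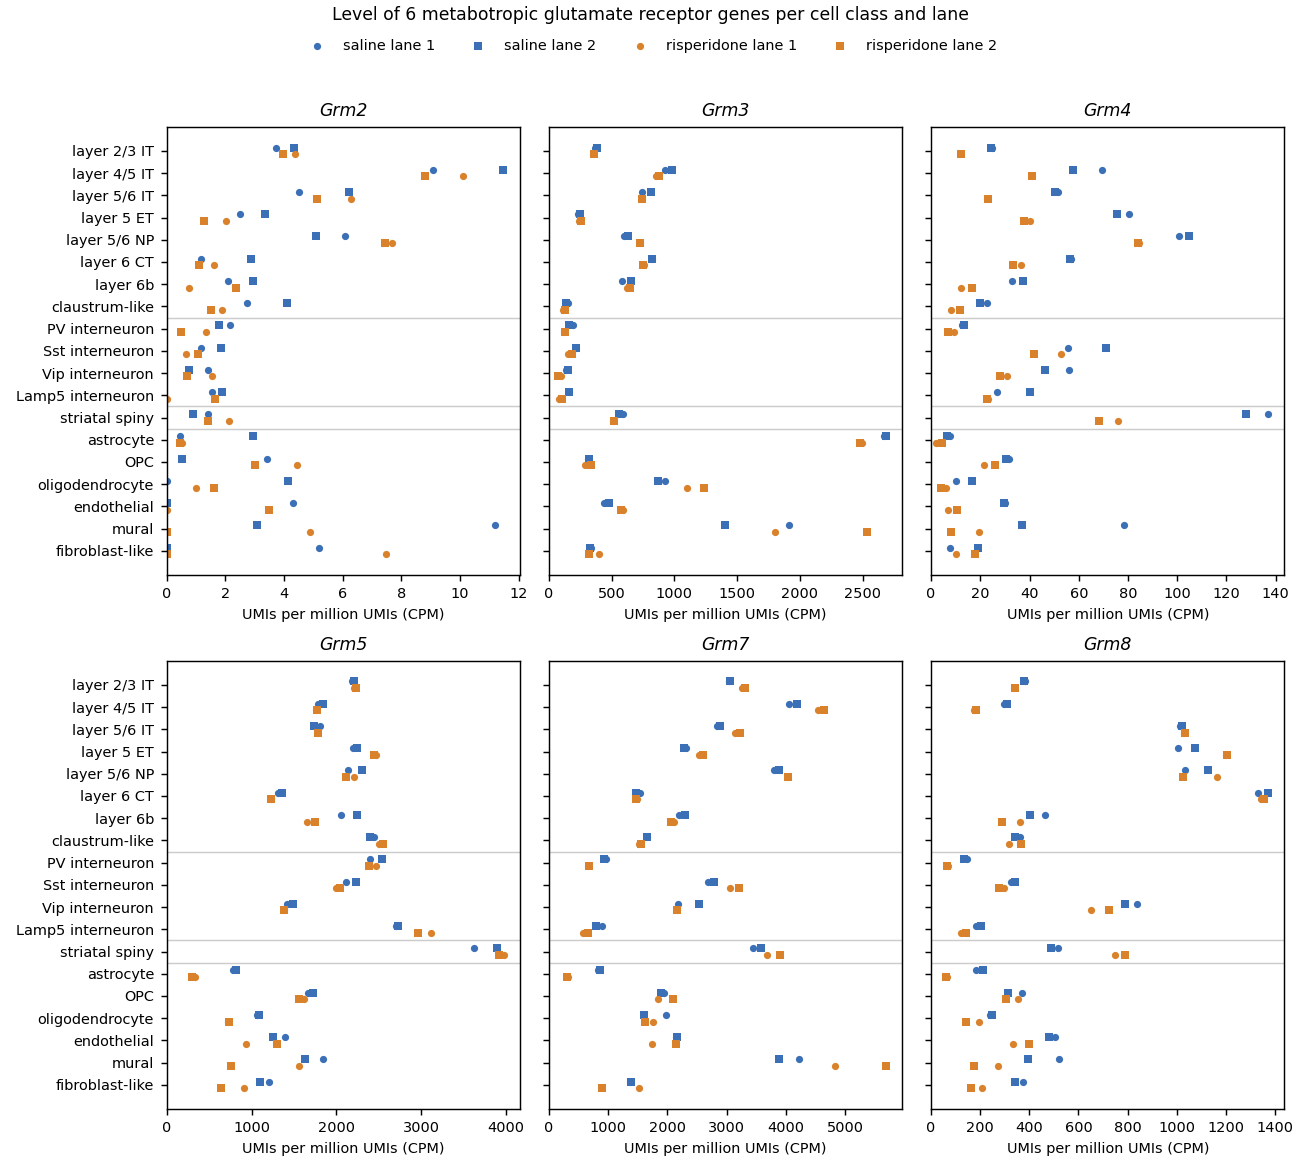
Level of each receptor gene (CPM, linear axis from 0) in 19 cell classes and layer types, 1 point per lane (blue saline, orange risperidone). Grm3 peaked in astrocytes, Grm5 in striatal spiny projection nuclei and Grm8 in layer 6 corticothalamic neurons. Grm4 was highest in striatal spiny projection nuclei in the saline pool and in layer 5/6 NP neurons in the risperidone pool. The risperidone points of Grm4 lay left of the saline points in most classes.

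Grm5, the group I member, was found in every neuronal class. Among the named classes its level was highest in the striatal spiny projection cluster, at 3617 and 3886 CPM in the saline lanes and 3978 and 3911 CPM in the risperidone lanes, and all 4 lanes lay above those of the next class. Lamp5 interneurons followed with 2702, 2729, 3111 and 2958 CPM in the same order of lanes, also apart from the classes below them. Claustrum-like, PV, layer 5 extratelencephalic (ET), layer 2/3 intratelencephalic (IT) and layer 5/6 near-projecting (NP) nuclei, with means of the pools of 2472, 2444, 2334, 2205 and 2191 CPM, formed a run in which no neighbours differed beyond the spread of the lanes. Among the glutamatergic layer types the lowest level was in layer 6 corticothalamic (CT) neurons, with a mean of 1284 CPM, and among the interneurons in Vip interneurons, with 1420 CPM. With classes set per nucleus from marker UMIs, Grm5 was highest in layer 5 ET neurons and not in striatal nuclei. Layer 5 ET nuclei were then too few for a ratio between the pools, which takes at least 50 nuclei per pool. Nuclei of at least 2000 UMIs were thinned to 2000 UMIs, and 94.9% to 95.7% of such glutamatergic nuclei per lane held a Grm5 UMI. They were 12769 of 15440 and 14657 of 15812 nuclei in the saline lanes. In the risperidone lanes they were 13481 of 13631 and 12432 of 12527. All shares given after thinning leave out nuclei under 2000 UMIs.

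Between the pools, Grm5 in glutamatergic neurons was at 2066 and 2144 CPM in the saline lanes and 1941 and 1979 CPM in the risperidone lanes after TMM scaling. The groups of lanes did not overlap, and the log2 ratio was -0.10 (interval -0.11 to -0.10, lane pairs -0.14 to -0.06), which was under the size for listing. It was listed in none of the 8 layer types, where the ratio ran from -0.41 in layer 6b to 0.08 in layer 5 ET, and in none of the 4 interneuron classes, where it ran from -0.19 to 0.07.

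Grm3, a group II receptor, was highest in astrocytes. The astrocyte lanes held 2672 and 2685 CPM in saline and 2496 and 2481 CPM in risperidone, 470% and 469% of the level over all kept nuclei of the same pool. Mural nuclei were second with a mean of 1896 CPM and overlapped with the astrocyte lanes; this cluster carried glutamatergic markers at 46.7% to 81.3% of the level of the whole lane. Oligodendrocytes (1036 CPM) and layer 4/5 IT neurons (910 CPM) came next. Among glutamatergic neurons Grm3 followed the layers: layer 4/5 IT, layer 6 CT (789 CPM) and layer 5/6 IT (760 CPM) were high, layer 2/3 IT (366 CPM), layer 5 ET (244 CPM) and claustrum-like nuclei (131 CPM) low. The lanes of layer 2/3 IT lay apart from those of layer 4/5 IT, and layer 5 ET was apart from both its neighbours in the order. The 4 interneuron classes held 114 to 192 CPM. After thinning, 94.5% to 95.6% of astrocytes and 76.8% to 77.8% of layer 4/5 IT nuclei, but 10.3% to 25.6% of Vip interneurons, held a Grm3 UMI.

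In astrocytes the log2 ratio of Grm3 was -0.19 (interval -0.23 to -0.16, lane pairs -0.22 to -0.17), with the lanes of the pools apart and -0.66 with classes set per nucleus, and in glutamatergic neurons it was -0.12 (lane pairs -0.18 to -0.06). Neither reached the size for listing, and the glutamatergic value did not keep its sign in nuclei called female, where it was 0.09, against -0.33 in nuclei called male. Grm3 was listed lower in Vip (-0.92), Lamp5 (-0.87) and PV (-0.58) interneurons, beside 8.56%, 8.94% and 9.91% of genes listed lower. None of the 3 was listed with the estimated RNA of other cells subtracted. There PV was at 0.02, Lamp5 was still lower at -1.18, and Vip had no value. With classes set per nucleus PV (-0.02) and Lamp5 (-0.27) were not listed. Glutamatergic markers were also lower in these nuclei of the risperidone lanes, at 7.03% to 20.2% of the level of the whole lane against 17.8% to 28.6% for saline.

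Grm2, the other group II receptor, was scarce. Its highest level in a named class, in layer 4/5 IT neurons, was 9.09 and 11.5 CPM in the saline lanes (84 and 132 UMIs) and 10.1 and 8.81 CPM in the risperidone lanes (148 and 167 UMIs). Layer 5/6 NP neurons followed with a mean of 6.53 CPM and layer 5/6 IT neurons with 5.57 CPM, and all lanes of layer 4/5 IT lay above theirs. Only the mural lanes, with 0 to 11.2 CPM from 4 UMIs in all, reached into the range of layer 4/5 IT. After thinning, 1.35% to 2.44% of layer 4/5 IT nuclei per lane held a Grm2 UMI, against 0.167% to 0.212% of Vip interneurons, 1 nucleus in each lane. No named class reached 10 CPM over the 4 lanes on the TMM scale, so Grm2 was compared in none of them. In layer 4/5 IT neurons its log2 ratio was -0.21, with an interval of -0.46 to 0.05 that includes 0, so no difference was detectable there at this depth. Over all glutamatergic neurons the ratio was -0.19 (interval -0.33 to -0.05) with overlapping lanes, and in layer 5 ET neurons, from 25 and 21 UMIs, it was -0.93 (interval -1.84 to -0.04) with the lanes apart.

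Grm7, a group III receptor of the presynaptic active zone with low affinity for glutamate, was the member with the most UMIs. Layer 4/5 IT neurons held 4054 and 4192 CPM in saline and 4539 and 4639 CPM in risperidone, layer 5/6 NP neurons a mean of 3944 CPM, and striatal spiny projection nuclei 3666 CPM. The mean of mural nuclei was above these, at 4659 CPM, and their lanes overlapped with those of layer 4/5 IT neurons. Sst interneurons (2945 CPM) and Vip interneurons (2267 CPM) stood well above PV (810 CPM) and Lamp5 (733 CPM) interneurons, whose lanes did not overlap with theirs. Among layer types, layer 6 CT (1491 CPM) and claustrum-like nuclei (1599 CPM) were lowest. In glutamatergic neurons the log2 ratio was 0.06 (interval 0.06 to 0.07, lane pairs 0.02 to 0.10), and no layer type was listed, with ratios from -0.18 to 0.10.

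Grm8, a further presynaptic group III receptor, was highest in layer 6 CT neurons among the named classes. They held 1332 to 1373 CPM over the 4 lanes, above all lanes of every other named class. Layer 5 ET (1123 CPM), layer 5/6 NP (1087 CPM) and layer 5/6 IT (1025 CPM) neurons followed and did not differ beyond their lanes, and all lanes of layer 5/6 IT lay above those of Vip interneurons (750 CPM), the highest of the interneurons. Layer 6b, at 373 CPM, was not apart from layer 2/3 IT neurons, at 361 CPM, and layer 4/5 IT neurons held 242 CPM. After thinning, 88.2% to 89.3% of layer 6 CT nuclei held a Grm8 UMI, against 10.6% to 25.04% of PV interneurons, whose median UMIs per nucleus were 3099.5 to 7344 against 3217 to 7072 in layer 6 CT. With classes set per nucleus, Grm8 was highest in layer 5 ET neurons and not in layer 6 CT, though layer 5 ET nuclei were then too few for a ratio between the pools.

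The clearest difference in Grm8 between the pools among layer types was in layer 4/5 IT neurons, a single cluster of 10160 nuclei. The saline lanes held 302 and 320 CPM and the risperidone lanes 169 and 180 CPM on the TMM scale. The log2 ratio was -0.83 (interval -0.88 to -0.78, lane pairs -0.92 to -0.74), beside 5.97% of genes listed lower and 4.43% higher, and 1.59% of the 7064 genes measured there had a lower ratio. It was listed lower in nuclei called female (-1.04) and in those called male (-0.53), with classes set per nucleus (-1.01) and with the estimated RNA of other cells subtracted (-0.75). Rorb, the leading marker of this layer type, had a ratio of -0.12, and its markers Rspo1 and Whrn had -0.19 and -0.06, while Scnn1a, at 1.87 and 4.06 CPM, was under 10 CPM. In the other layer types Grm8 was not listed and its ratio ran from -0.48 in layer 6b to 0.14 in layer 5 ET.

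In striatal spiny projection nuclei, also a single cluster, Grm8 was higher in the risperidone lanes, at 715 and 779 CPM, than in the saline lanes, at 526 and 509 CPM. The log2 ratio was 0.54 (interval 0.48 to 0.61), the only listed higher value of a member in a named class, beside a background of 6.44% of genes listed higher. It was 0.45 and under the size for listing in nuclei called female, 0.48 without the second risperidone lane, 0.95 with the RNA of other cells subtracted, and -0.24 with classes set per nucleus, where its sign was turned. The cluster held 1752 saline and 892 risperidone nuclei, and of its 6 markers Pde10a was listed lower (-0.59) while Drd1 was at 0.35 and Adora2a at -0.22. The part of these shifts in the Grm8 value was not tested.

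Grm4, the third group III receptor measured and a presynaptic receptor best known from cerebellum and striatum, showed the widest difference between the pools. In glutamatergic neurons the saline lanes held 51.1 and 47.8 CPM and the risperidone lanes 25.2 and 24.8 CPM, from 6643 and 5011 UMIs per pool. The lanes of the pools did not overlap, and the 2 lanes of a pool were closer to each other than to any lane of the other pool. The log2 ratio was -0.98 (interval -1.03 to -0.93, lane pairs -1.05 to -0.92). Of the 5 receptors that reached 10 CPM in glutamatergic neurons, Grm4 alone was listed there, where 7.43% of the 7199 genes measured were listed lower and 4.35% higher, and 66 of those genes (0.917%) had a lower ratio. Of the 4437 genes at 10 to 50 CPM, the range that holds Grm4, 7.39% were listed lower.

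**Figure D2:**
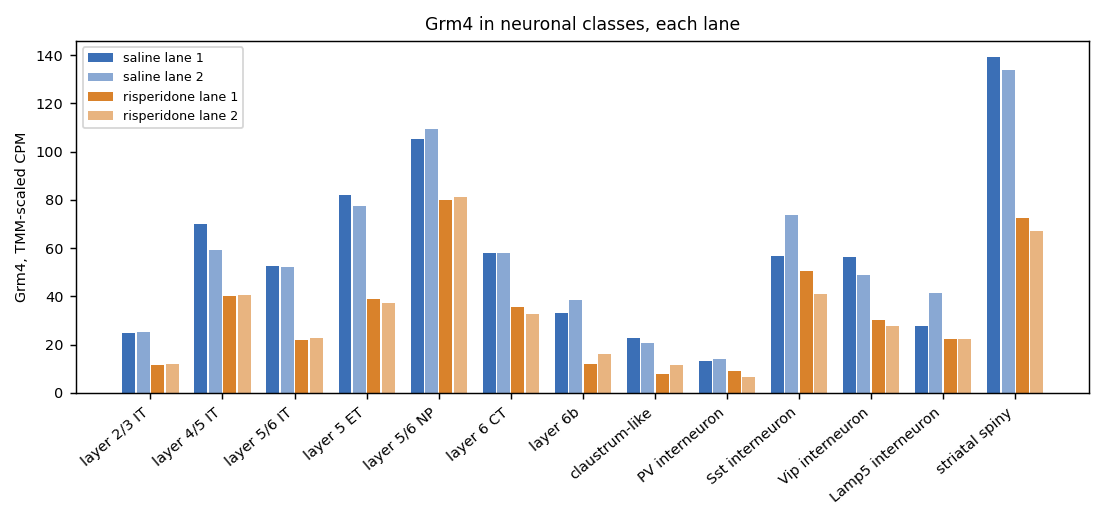
Grm4 level (TMM-scaled CPM, axis from 0) in 13 neuronal classes, 1 bar per lane. In each class both risperidone bars were below both saline bars, as in layer 5 ET neurons at 38.7 and 37.4 CPM against 81.9 and 77.6 CPM.

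Grm4 was lower in the risperidone pool in all 8 layer types and was listed lower in 7 of them, while the median ratio over all genes was between -0.04 and 0.00 in each. In layer 2/3 IT neurons the level was 24.98 and 25.08 CPM in the saline lanes and 11.5 and 11.8 CPM in the risperidone lanes, a log2 ratio of -1.10, beside 6.69% of genes listed lower and 5.54% higher. In layer 5/6 IT neurons it was 52.4 and 52.1 CPM against 21.8 and 22.7 CPM (-1.23), and in layer 5 ET neurons the ratio was -1.07, where 7.98% and 10.6% of genes were listed lower and 5.45% and 6.72% higher. Layer 6 CT neurons (-0.77), layer 4/5 IT neurons (-0.67), layer 6b (-1.34, from 123 and 44 UMIs) and claustrum-like nuclei (-1.14, from 54 and 36 UMIs) were listed as well, beside 6.23%, 5.97%, 13% and 9.99% of genes listed lower and 4.52%, 4.43%, 8.94% and 7.99% higher. Different clusters held most of layer 6 CT and layer 6b in the pools: 1 layer 6 CT cluster had 845 and 783 saline against 18 and 16 risperidone nuclei, another 12 and 20 against 254 and 259, and 1 layer 6b cluster 243 and 283 against 28 and 32. In claustrum-like nuclei called male the ratio was 0.08, and with classes set per nucleus layer 6 CT was at -0.60 and not listed. Layer 5/6 NP neurons, the layer type with the highest Grm4 level, were the exception: at 105 and 109 CPM against 79.7 and 81.3 CPM their lanes were apart, and the ratio of -0.42 was under the size for listing, beside 11.5% of genes listed lower and 6.34% higher. The make-up of this layer type differed between the pools as well. 1 of its clusters had 393 and 409 saline against 184 and 192 risperidone nuclei, and the other 288 and 312 against 210 and 185. Some markers of the layer types moved too. In layer 2/3 IT Otof was listed lower (-0.89), with Cux2 at -0.45, Stard8 at -0.13 and Rasgrf2 at -0.06. In layer 5/6 NP Slc17a8 was listed higher (0.88), Tshz2 was at -0.47 and the others ran from -0.12 to 0.31. Moxd1 (1.23) and Cplx3 (0.62) were listed higher in layer 6b, and Ntng2 lower (-0.62) in claustrum-like nuclei. No marker was listed in the other layer types. The part of these shifts in the Grm4 values was not tested.

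Outside the glutamatergic neurons, Grm4 was listed lower in the striatal spiny projection cluster, the 4 interneuron classes and 2 of the 4 non-neuronal classes where it reached 10 CPM. It was not listed in oligodendrocyte precursors (-0.46) or fibroblast-like nuclei (-0.12), and its mean over the lanes was under 10 CPM in astrocytes and oligodendrocytes. Striatal spiny projection nuclei, with the highest level of a named class in the saline pool, had 139 and 134 CPM in the saline lanes and 72.5 and 67.2 CPM in the risperidone lanes, a log2 ratio of -0.97 (interval -1.15 to -0.80), beside 9.06% of genes listed lower. Grm4 was listed lower in Vip (-0.86), PV (-0.83), Lamp5 (-0.66) and Sst (-0.55) interneurons. The PV value rested on 80 and 55 UMIs, and was 0.18 with the RNA of other cells subtracted. In Sst interneurons the lanes were close, at 56.9 and 73.8 CPM against 50.6 and 41.1 CPM, and the value was not listed in female (-0.40) or male (-0.53) nuclei or with plain CPM (-0.46), nor without the second saline (-0.32) or the second risperidone lane (-0.37). In Lamp5 interneurons it was -0.30 without the second saline lane, and in PV interneurons the level without either saline lane was under 10 CPM. Over all 27 classes and clusters with at least 50 nuclei per pool, 8 of them unnamed, Grm4 was listed lower in 20 of the 25 that reached 10 CPM. In the single classes and clusters 5.97% to 20.7% of the genes measured were listed lower. The 27 classes and clusters come from the same pools and lanes and are not separate observations of the treatment. In how many of them other genes were listed is not given here. Among the unnamed clusters, called by their leading genes, the ratio was -1.78 in Ndst4 Ankfn1 (11.3% of genes listed lower, 5.39% higher), -1.04 in Sulf1 Hs3st2 (7.53%, 5.51%), -0.76 in Ebf1 Zfhx3 (9.84%, 7.31%) and -0.61 in Gm2115 Stac (20.7%, 9.44%). In Glis3 Prox1 it was listed from 31 and 8 UMIs (14.3%, 12.1%), and it was -0.56 in Gm49906 Fyb2 (16.5%, 12.4%). In Tshz2 Itprid1 (-0.33; 8.05%, 9.23%) and B020031H02Rik Foxp2 (-0.46; 10.2%, 10.4%) it was not listed.

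After thinning to 2000 UMIs, a Grm4 UMI was found in 9.06% and 8.55% of saline and 4.96% and 5.19% of risperidone glutamatergic nuclei, and in astrocytes, where the gene was lowest, in 2.18% and 1.38% against 0% and 0.858%. The exact interval of the 0 of 251 astrocytes reached up to 1.46%. Astrocytes with enough UMIs to be thinned were 459 of 1100 and 725 of 1112 in the saline lanes. In the risperidone lanes they were 251 of 1172 and 583 of 1000. Before thinning, glutamatergic shares were 15.4% and 17.1% against 13.3% and 17.0%. Glutamatergic nuclei had median UMIs of 3376 to 8262 and astrocytes of 1552.5 to 2217. In layer 5 ET neurons the thinned shares were 14.1% and 13.9% against 6.64% and 7.96%. The difference was thus seen in how many nuclei held a UMI, and these shares do not tell fewer expressing nuclei from less RNA in each.

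The glutamatergic ratio of Grm4 was listed lower in nuclei called female (-1.12) and in nuclei called male (-0.86) by their sex-linked transcripts. Markers of other cells moved with this ratio: the shared interneuron markers Gad1, Gad2 and Slc32a1 stood in glutamatergic nuclei at 23.4% and 21.2% of the level of the whole lane for saline and at 10.4% and 9.66% for risperidone, which does not tell free RNA from mixed nuclei. With the estimated RNA of other cells subtracted the ratio was -1.02. It lay between -1.39 and -0.84 over the 15 alternatives. Of the 7 other genes within 500 kb of Grm4 that reached 10 CPM, all had ratios below 0, from -0.57 to -0.15, and 1 of them was listed lower (Pacsin1, 134 kb away, named after its value was seen).

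**Figure D3:**
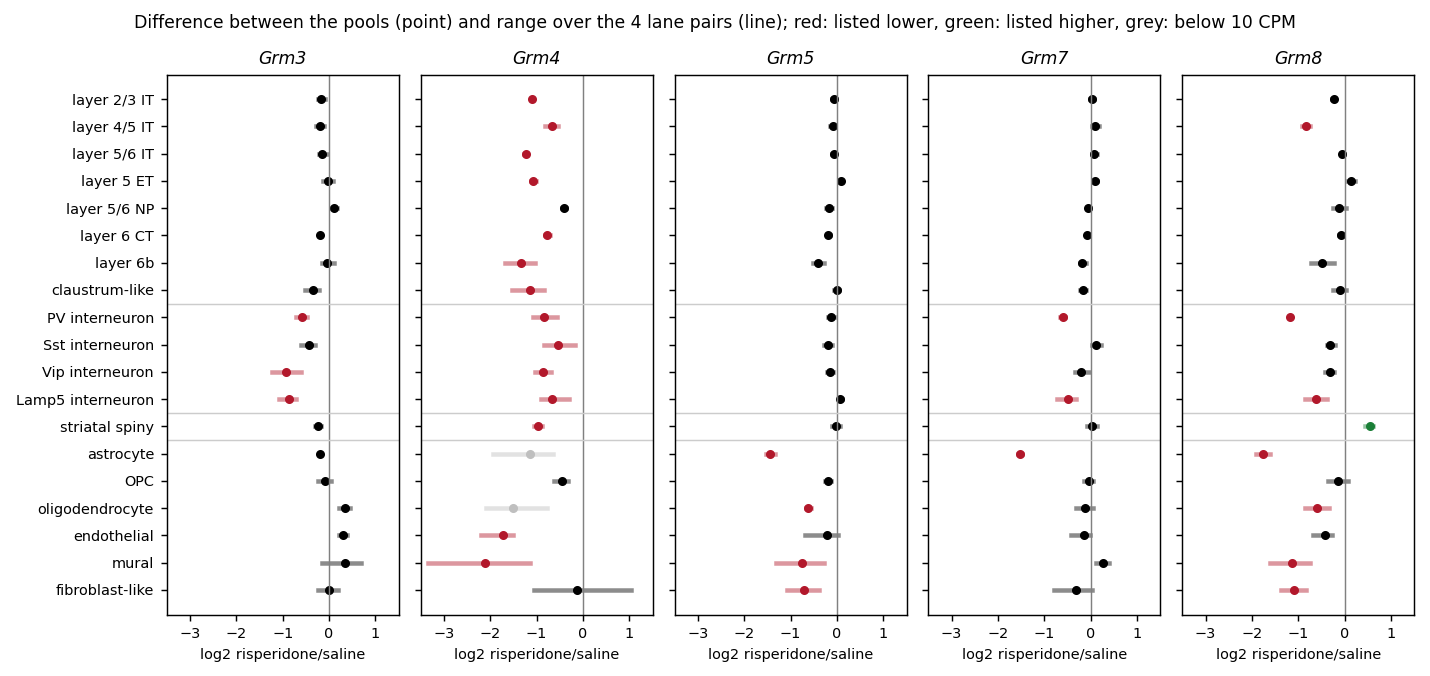
Log2 ratio of risperidone over saline for 5 receptors in 19 cell classes and layer types (points), with the range over the 4 pairs of a risperidone and a saline lane (lines). Listed lower values are red, listed higher green, and values below 10 CPM grey. Grm4 was red in 14 of the 17 classes that reached 10 CPM, and in the glutamatergic layer types Grm5 ran from -0.41 to 0.08 and Grm7 from -0.18 to 0.10, with none listed.

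In interneurons 11 of the 20 combinations of receptor and class that reached 10 CPM were listed lower and none higher, by size. In PV interneurons, the fast-spiking basket-type cells, 4 of the 5 receptors measured were listed lower beside 9.91% of genes listed lower and 6.66% higher: Grm8 (-1.18), Grm4 (-0.83), Grm7 (-0.61) and Grm3 (-0.58). PV lanes held 148 and 143 CPM of Grm8 in saline against 63.9 and 64.1 CPM in risperidone, and 985 and 988 CPM of Grm7 against 621 and 669 CPM. In Lamp5 interneurons 4 were listed lower beside 8.94% of genes (7.93% higher), in Vip 2 beside 8.56% (5.86% higher) and in Sst 1 beside 8.5% (5.76% higher). Glutamatergic markers moved with them, at 19.0% and 17.8% of the level of the whole lane in PV interneurons of the saline lanes and at 7.87% and 7.03% in those of risperidone. Grm8 stood in PV interneurons at 22.8% and 11.6% of the level over all nuclei of the pool, and Grm7 at 35.3% and 22.8%. Without 1 lane, Grm3 in PV interneurons (-0.45, first saline lane) and Grm7 (-0.42, first saline lane; -0.40, first risperidone lane) and Grm8 (-0.50, first risperidone lane) in Lamp5 interneurons were no longer listed, nor were Grm3 (-0.47) and Grm7 (-0.50) in PV interneurons and Grm7 in Lamp5 interneurons (-0.42) with plain CPM. With the estimated RNA of other cells subtracted 2 of the 17 combinations measured were listed, both Grm4, in Vip (-0.87) and Sst (-0.56) interneurons. In PV interneurons Grm3 was then at 0.02 and Grm8 at -0.48, and in Lamp5 interneurons Grm3 was at -1.18, Grm7 at -0.46 and Grm8 at -0.09. With classes set per nucleus, which left no Vip class of sufficient size, 3 of 15 were listed, all of them Grm4. Grm5, which was high in PV and Lamp5 interneurons, was at -0.14 and 0.07 there. Some markers of these classes moved too. In Vip interneurons Vip (0.98), Htr3a (0.81) and Tac2 (0.69) were listed higher. In Sst interneurons Sst (1.13) and Hpse (0.78) were listed higher and Tmem132c (-0.57) lower. Mybpc1 (0.57) was listed higher in PV interneurons, where Btbd11 was at -0.42, and Lamp5 (0.54) in Lamp5 interneurons. The part of these shifts in the receptor values was not tested.

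In the non-neuronal classes 11 of the 28 combinations that reached 10 CPM were listed lower. The risperidone lanes held nuclei down to 500 UMIs and the saline lanes only down to 1364 and 1630, so these classes compare nuclei above different floors. Among nuclei of at least 2000 UMIs, 9 combinations were listed lower and 2 higher. Astrocytes gave the lowest ratios of Grm8 (-1.77), Grm7 (-1.53) and Grm5 (-1.44), beside 15% of genes listed lower and 9.29% higher. At Louvain resolution 1.0 this class split by pool, with 1 cluster of 79 and 96 saline against 1136 and 962 risperidone nuclei and another of 1020 and 1016 against 36 and 38. The Grm5 level of astrocytes was 780 and 813 CPM in the saline lanes and 328 and 299 CPM in the risperidone lanes, 38.9% and 15.4% of the level over all nuclei, and glutamatergic markers stood in the same nuclei at 31.6% and 28.3% of the lane's level for saline and 13.6% and 14.2% for risperidone. For Grm7 and Grm8 the shares were 31.4% and 10.5%, and 32.6% and 10.8%. These 3 receptors and the neuronal markers were thus lower together. With the estimated RNA of other cells subtracted Grm5 remained listed, at -2.96, and nothing of Grm7 and Grm8 was left in the risperidone pool. With classes set per nucleus Grm5 was at 0.02, Grm7 at 0.27 and Grm8 at -0.13 in astrocytes. In oligodendrocytes Grm5 (-0.62) and Grm8 (-0.60) were listed beside 12.8% of genes (11.9% higher). Different clusters held most of this class in the pools: 1 had 6 and 2 saline against 388 and 433 risperidone nuclei, and another 232 and 202 against 13 and 11. In endothelial nuclei Grm4 alone was listed lower (15 and 8 UMIs, beside 11.2% lower and 16.2% higher). Grm4 (26 and 6 UMIs), Grm5 and Grm8 were listed lower in mural nuclei (16%, 15.5% higher), and Grm5 and Grm8 in fibroblast-like nuclei (15.4%, 14.2% higher), with glutamatergic markers at 33.9% to 81.3% of the lanes' level in the 3 classes. No receptor was listed in oligodendrocyte precursors, where Grm5 was at -0.19 and 7.28% of genes were listed lower and 6.19% higher; glutamatergic markers there stood at 55.7% to 56.7% in every lane. Microglia had 25 saline nuclei and were not compared. Without the second risperidone lane, Grm8 in oligodendrocytes (-0.38) and Grm5 in mural (-0.23) and fibroblast-like nuclei (-0.46) were no longer listed. Ratios of the non-neuronal classes' own markers are not given here, so shifts within these classes are shown only by their clusters. The parts of such shifts, of RNA from other cells and of the different UMI floors in these values were not tested.

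The genes that carry the receptors' signal or bind them were read from a list of 44, of which 35 reached 10 CPM in glutamatergic neurons. There 5 were listed lower and 1 higher, beside the 7.43% and 4.35% of all genes, and the median ratio was -0.17 against -0.02 over all genes.

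**Figure D4:**
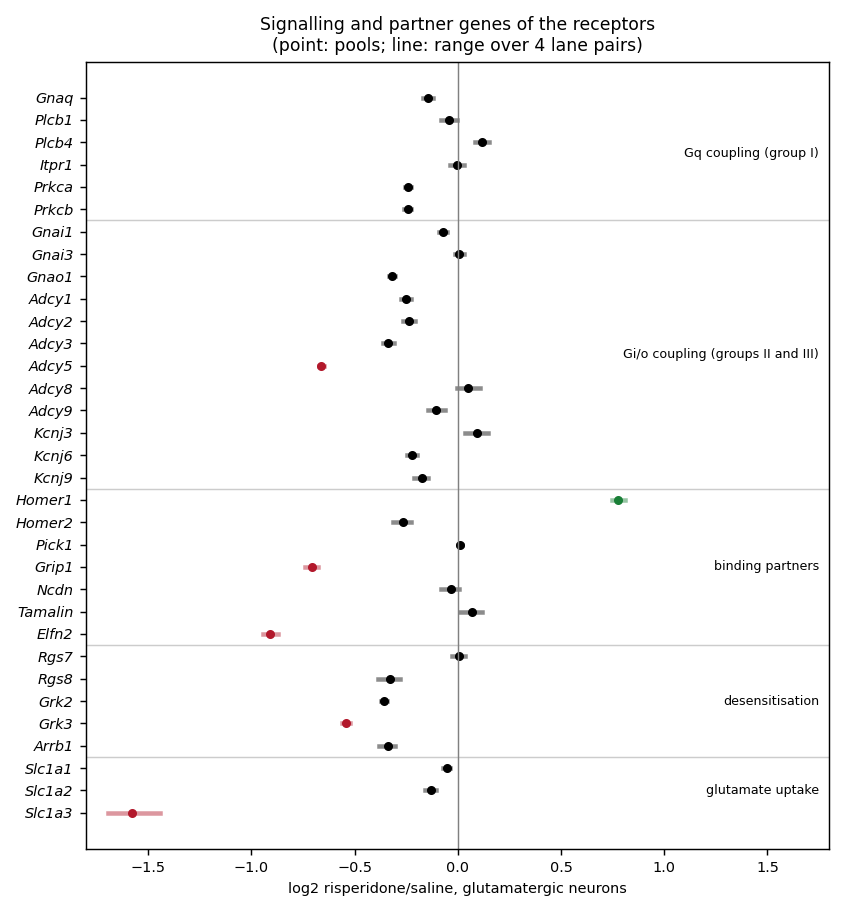
Log2 ratio of risperidone over saline in glutamatergic neurons for 33 of the signalling, binding and uptake genes that reached 10 CPM (points), with the range over the 4 lane pairs (lines). Homer1 was the only gene listed higher (green), at 0.78, and Slc1a3, Elfn2, Grip1, Adcy5 and Grk3 were listed lower (red).

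Of the binding partners, 2 of 7 measured were listed lower and 1 higher. Homer1, the scaffold that ties group I receptors to the postsynaptic density, was at 315 and 540 CPM in the saline and risperidone pools, a log2 ratio of 0.78 (interval 0.76 to 0.79, lane pairs 0.75 to 0.81). The ratio of Homer1 was between -0.06 and 0.19 in the 4 interneuron classes. Elfn2, an adhesion protein that binds group III receptors across the synapse, was at 74.5 and 39.6 CPM (-0.91, interval -0.95 to -0.87), and it was listed lower in Lamp5 (-0.81), PV (-0.94), Sst (-0.70) and Vip (-0.60) interneurons as well. Grip1, a PDZ scaffold known for binding AMPA receptors, was at 490 and 301 CPM (-0.70). Its level in interneurons was 4741 to 7045 CPM, and with the RNA of other cells subtracted its glutamatergic ratio was -0.38, under the size for listing.

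Of the genes of Gi/o coupling, which groups II and III use, 1 of 12 was listed lower, the adenylyl cyclase Adcy5, at 68.2 and 43.1 CPM (-0.66), and none higher. With the RNA of other cells subtracted Adcy5 was at -0.501, barely past the size for listing. It was listed lower in the layer types other than layer 6 CT and layer 6b. The G protein subunit Gnao1 was at -0.32 and the girk channel subunits Kcnj3 and Kcnj6 at 0.09 and -0.22. None of the 7 genes of Gq coupling was listed: the phospholipase Plcb1 was at -0.04 and the IP3 receptor Itpr1 at 0.00. Of the desensitisation genes 1 of 5 was listed lower, the receptor kinase Grk3, at 89.8 and 61.6 CPM (-0.54). It was not listed with plain CPM (-0.46), in nuclei called male (-0.48), with classes set per nucleus (-0.41) or with layer types weighted equally (-0.43). Among the transporters that clear glutamate, Slc1a3 was listed lower (-1.58, 26.1 and 8.72 CPM). This gene was at 2704 and 2662 CPM in astrocytes, with a ratio of -0.02 there, and was not measurable in glutamatergic neurons once RNA of other cells was subtracted. Grm6, a retinal receptor of group III, was under 10 CPM.

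Across single nuclei, Grm5 and Grm7 were found together in most glutamatergic neurons: after thinning, 94.3% and 93.8% of saline nuclei and 93.4% and 93.2% of risperidone nuclei held UMIs of both. For the 10 pairs of receptors without Grm2, the share of nuclei with both was 0.972 to 1.12 times the product of the single shares in each lane. In such sparse counts these ratios are given as a description.

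Over the 19 named classes and layer types, the genes with the level pattern most like Grm5 (Pearson correlation of log2(CPM + 1), mean of the pools, 7981 genes) were Nsg2 (0.93), Sptbn4 (0.90) and Fbxl16 (0.89). For Grm3 they included Akt2 (0.81) and Arap2 (0.80), for Grm4 they were Rit2 (0.86), Eml5 (0.83) and Rgs17 (0.82), and for Grm8 Ldb2 (0.84), Khdrbs2 (0.82) and Pcsk1 (0.80). Grm2 was most like Gm40331 (0.91), Crhr1 (0.88) and Nrn1 (0.86), and Grm7 like 4930587E11Rik (0.80), Begain (0.79) and Cacna2d3 (0.78). Among the members, the highest correlations were 0.71 for Grm4 and Grm8, 0.70 for Grm4 and Grm7, 0.61 for Grm4 and Grm5, 0.61 for Grm2 and Grm7 and 0.55 for Grm7 and Grm8, so that 2 pairs across groups lay within the range of the group III pairs. Grm3 and Grm5 had the lowest (-0.56). The classes share lanes, depth and RNA of other cells, and the correlations carry no p-value.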

How the data were processed

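The authors pooled cortical tissue of 10 mice per condition, ran 2 Chromium lanes per pool, aligned reads with Cell Ranger 8.0.1 to mm10 and deposited the filtered UMI counts per gene and nucleus, which are whole numbers without normalization. The members and gene lists were chosen with earlier results of these data known. Nuclei under 500 genes or over 5% mitochondrial UMIs were dropped, then doublet-like nuclei, and 96506 nuclei were clustered (2000 variable genes, 30 principal components, 20 neighbours, Louvain resolution 0.5) without the receptors, the pathway genes and sex-linked genes. Clusters were named from marker lists, with thresholds set after the marker levels were seen. The alternative that set classes per nucleus classed 41254 of the 96506 nuclei, and 17894 nuclei lay near the limit. It needed a minimum of marker UMIs in each nucleus, and the pools differed in UMIs per nucleus. Counts were summed per class and lane and scaled by TMM (edgeR 4.0.16, R 4.3.3; DESeq2 1.42.0 size factors as an alternative). Named genes were the 6 members, the 44 pathway genes and the 3 genes most alike in level to each member. The procedure was tested on simulated data of 7193 genes in glutamatergic neurons and 7442 in PV interneurons. It listed no unchanged gene in the former and 44 in the latter. With 1 pool per condition the data give no measure of variation between mice, so these counts do not cover false listings from it. Python 3.11.15 was used elsewhere. Protein identity was not analysed here, and some of the named genes are not reported here. Gene positions are from GENCODE vM21, which holds 32235 of the 32285 gene identifiers.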

Additional observations from a re-analysis of the deposited data

Results flagged for a closer look

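Grm8 differed in direction between cell classes: it was listed higher in striatal spiny projection nuclei (log2 ratio of risperidone over saline 0.54) and lower in layer 4/5 IT neurons (-0.83), PV interneurons (-1.18), Lamp5 interneurons (-0.61), astrocytes (-1.77), oligodendrocytes (-0.60), mural nuclei (-1.15) and fibroblast-like nuclei (-1.09). Both risperidone lanes lay above both saline lanes in the first class and below them in each of the others. With 1 pool per condition the difference between the classes was not tested. The higher value was -0.24 with classes set per nucleus, and the lower values outside layer 4/5 IT neurons came from classes in which markers of glutamatergic neurons were also at a lower level in the risperidone lanes. Layer 4/5 IT neurons are themselves glutamatergic, so these markers cannot show RNA of other glutamatergic neurons there. Grm8 was at 242 CPM in layer 4/5 IT and at 1352 CPM in layer 6 CT neurons. The part of RNA from other cells in these Grm8 values was not tested.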

How the results depend on the processing

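No paired analysis was possible because the results come from no test and the 2 lanes of a condition share 1 pool. Grm4 was the 1 receptor listed in glutamatergic neurons under each alternative except a minimum of 50 CPM, which it does not reach (0 listed). In the layer types 8 of the 40 combinations measured were listed, and 3 with that minimum. In interneurons 11 were listed, 3 with classes per nucleus, 2 with RNA of other cells subtracted and 7 with plain CPM. In non-neuronal classes 11 were listed, all lower, against 7 in male nuclei (of 19 measured), 7 with classes per nucleus (6 lower, 1 higher, of 35) and 6 with RNA of other cells subtracted (4 lower, 2 higher, of 16). Leaving out 1 lane gave 1 to 1, 8 to 9, 8 to 11, 12 to 14 and 6 to 7 listed in glutamatergic neurons, layer types, interneurons, non-neuronal classes and pathway genes. With a lane left out, fewer lanes have to be apart, so that condition for listing is easier to meet and these counts can exceed the main ones. The class with the highest level stayed the same for 2 of 6 receptors with classes per nucleus, Grm2 and Grm3. Grm4, Grm5 and Grm8 were then highest in layer 5 ET neurons and Grm7 in layer 4/5 IT neurons. With classes per nucleus, layer 5 ET nuclei were too few for a ratio between the pools, so its place as the highest class rests on few nuclei. Over single receptors and classes, 1002 of 1324 alternative ratios stayed within the spread of the main value, 311 moved beyond it and 11 of listed values changed sign: Grm4 in claustrum-like male nuclei (0.075); Grm3 (0.018) and Grm4 (0.18) in PV interneurons with RNA of other cells subtracted; with classes per nucleus Grm7 in PV (0.037), Grm8 in Lamp5 (0.076) and striatal nuclei (-0.24), Grm5 in astrocytes (0.015), mural (0.14) and fibroblast-like nuclei (0.32) and Grm7 in astrocytes (0.27); and Grm5 in fibroblast-like nuclei of at least 2000 UMIs (0.069). Plain CPM shifted the median of all genes by 0.14 in mural and fibroblast-like nuclei, 0.13 in layer 5/6 NP, 0.11 in PV interneurons and 0.08 in glutamatergic neurons, where 39.4% of listed genes were lower, against 63.1%. The cause was not tested. Pools differ in depth, and 1 pool per condition gives no measure of variation between mice.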

Other observations

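Among the clusters that could not be named, the receptors reached levels outside the range of the named classes. A glutamatergic cluster of 713 nuclei led by Gm49906 and Fyb2 held Grm4 at 248 and 217 CPM (TMM scale) in the saline lanes and 166 and 148 CPM in the risperidone lanes (log2 ratio -0.56), above every named class in the same pool. The same cluster held the highest Grm7 level, at 5067 and 8069 CPM in the saline and risperidone pools (0.67, interval 0.64 to 0.71, lane pairs 0.61 to 0.73), which was the only listed higher value of Grm7, beside 12.4% of genes listed higher. A GABAergic cluster of 906 nuclei led by B020031H02Rik and Foxp2 held Grm8 at 1851 and 2294 CPM (0.31), above layer 6 CT neurons. A glutamatergic cluster of 921 nuclei led by Glis3 and Prox1 held Grm2 at 12.4 and 22.2 CPM from 23 and 37 UMIs (0.84, interval 0.05 to 1.66). It was listed higher beside 12.1% of genes, on few UMIs, while the Gm49906 and Fyb2 cluster had Grm2 listed lower (-0.68, from 36 and 22 UMIs) with an interval of -1.52 to 0.12. These clusters were described after their values were seen.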
